A study of Mus musculus with 18 samples.

Results

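The comparison set CAR-deficient CD4+ effector T cells against wild type ones from the lamina propria of the colon. It takes 6 of the 18 libraries of the series, the 3 colon count columns marked CD45.1 negative against the 3 marked CD45.1 positive, and all genes of the table. Each library was made from about 500 sorted CD4+ cells, 3 weeks after T cells were transferred into Rag-deficient mice, whose own T and B cells do not develop. Wild type donor cells were C57BL/6 and carried the congenic marker CD45.1. CAR-deficient donor cells were C57BL/6 Nr1i3-/-, and their columns are the CD45.1 negative ones. The Rag gene, the hosts' age, the number of hosts and whether both genotypes shared a host are not given in the sources used here. A Rag-deficient host still has its epithelial, stromal and innate immune cells. The same 2 genotypes were also profiled from small intestine and spleen, 3 libraries each.

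CAR, encoded by Nr1i3, is a nuclear receptor that pairs with RXR and binds DNA elements built from AGGTCA-like half-sites. In liver it senses foreign compounds and bile products and switches on drug-handling genes such as Cyp2b10 and the efflux pump genes Abcb1a and Abcb1b. In T cells of the gut it has been linked to tolerance of bile acids, whose levels are high in the small intestine and lower in the colon.

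Total estimated counts ran from 19713336 to 22852273 over the 6 colon libraries. The libraries of a group are called a, b and c after the endings of their columns, and values are given in that order, wild type first and CAR-deficient after “against”. Both a libraries stood apart from the other 4. They had 16089 (wild type) and 15916 (CAR-deficient) genes detected, where the other 4 had 18168 to 18466. They had 3.88% and 3.86% of counts from the mitochondrial genome, where the other 4 had 2.25% to 3.05%. Cd4 lay between 127 and 156 CPM (counts scaled to library size with TMM factors) and Cd3e between 740 and 1372 CPM in all 6, so markers of the labelled cell type were present in each. Cd8a reached at most 1.68 CPM, but Cd8b1, the other CD8 chain, reached 7.87 CPM in wild type library b and 10.6 CPM in CAR-deficient library b. Trdc, a gamma delta T cell receptor gene, reached 37.2 CPM in wild type library b.

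Nr1i3 (chr1:171213970-171220701, GRCm38) gave almost no counts in either genotype. Wild type libraries held 0, 0 and 10 counts and CAR-deficient libraries 0, 29 and 1, so the deleted gene does not check the labels here. A count of 0 allows up to 3 counts, or 0.141 to 0.185 CPM in the 3 libraries at 0. The exact permutation test on log2(CPM + 1), two-sided, gave p = 0.7 (adjusted 0.774 over the 21 genes fixed for it), and 3 libraries against 3 cannot go below 0.1. Tomm40l, which overlaps Nr1i3 on the other strand, was at 2.03, 16.8 and 22.5 against 4.19, 5.92 and 8.93 CPM, and the groups overlap. Without strand in the counts, reads from that overlap cannot be assigned to either gene.

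Of 34162 genes in the table, 14876 passed the filter on low counts and were tested. No gene differed by edgeR's quasi-likelihood test at an adjusted p under 0.05 (0% of genes tested), and 363 genes (2.44%) had an unadjusted p under 0.05. With the column ending as a replicate block the call count was still 0, and 619 genes (4.16%) had an unadjusted p under 0.05. DESeq2 called 12 genes (0.0807%), 7 higher and 5 lower, and limma's voomWithQualityWeights called 3, all higher (0.0202%). DESeq2 gave 543 genes and voomWithQualityWeights 847 genes an unadjusted p under 0.05. Leaving the a column out of every group, edgeR called 2 genes, Btg2 and Gm28438.

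Since edgeR called none, the genes below are described by whether the 3 CAR-deficient libraries lay wholly above or wholly below the 3 wild type ones. In 608 genes (4.09% of those tested) they lay above, and in 494 genes (3.32%) below. The split depends on scaling: genes lying above made up 55.2% of both sets together on TMM-scaled sizes, 50% with size factors and 66.3% on library totals alone. With 3 libraries against 3, such a gene has a two-sided exact permutation p of 0.1. A share of about 0.1 of genes would thus lie wholly above or below with no difference between the groups. The share seen was 7.41%, so lying without overlap does not by itself show a difference. The leading genes named below are the 12 per direction with the smallest p among those of at least 5 mean CPM in 1 group. None of them passed the adjusted threshold in edgeR (adjusted p = 1 for each).

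Btg2 led the comparison. It encodes a protein that slows cell division and recruits the deadenylase complex that shortens messenger RNA tails, and it is high in resting T cells. Its level was 137, 124 and 122 against 291, 464 and 491 CPM. The lowest CAR-deficient library was thus above the highest wild type one, with the smallest gap in the a libraries. The log2 fold change was 1.70 ± 0.34 (SE), with adjusted p = 0.00142 by DESeq2, 0.000641 by voomWithQualityWeights and 1 by edgeR. It lay between 1.56 and 1.88 when each colon library was left out in turn, and at 1.95 without the a columns. Of the 3 tools, edgeR alone did not call it, and Btg2 was the only gene that both others called.

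Its promoter is printed because it is the leading gene and holds a half-site of the kind CAR binds. The 250 bases before the RefSeq start (GRCm38.p6) are given 5′ to 3′ in lower case, here and for Abcb1b, an efflux pump gene and known CAR target. Capitals mark AGGTCA on either strand (read as TGACCT on the other) and the CCAAT box on either strand (ATTGG).
Btg2, chr1:134079156-134079405, minus strand: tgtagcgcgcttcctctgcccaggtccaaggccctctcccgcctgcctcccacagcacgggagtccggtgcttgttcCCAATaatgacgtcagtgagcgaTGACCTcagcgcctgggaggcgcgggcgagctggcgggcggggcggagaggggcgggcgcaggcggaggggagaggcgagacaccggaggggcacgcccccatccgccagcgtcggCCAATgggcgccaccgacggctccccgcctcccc
Abcb1b, chr5:8797897-8798146, plus strand: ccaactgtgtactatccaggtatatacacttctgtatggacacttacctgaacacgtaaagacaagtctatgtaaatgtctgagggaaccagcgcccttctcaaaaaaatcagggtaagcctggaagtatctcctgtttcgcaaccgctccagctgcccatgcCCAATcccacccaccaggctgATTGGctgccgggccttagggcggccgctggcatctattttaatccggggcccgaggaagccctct
Btg2 holds 1 AGGTCA half-site, on the opposite strand 150 to 145 bases before the start, and Abcb1b holds none in this window. Among leading higher genes 7 of 12 matched a RefSeq promoter, and 3 of those 7 (Btg2, Irgm2 and Ralgapa2) hold AGGTCA. Of the leading lower genes 10 of 12 matched, and 0 of the 10 hold it. Over 10543 tested genes with a promoter, 13.3% hold it. Of 20 drug-handling genes of CAR or its relative PXR with a promoter, 2 hold it (10%). The leading genes are few and were picked by their values in these libraries. A pair of such half-sites, AGGTCA or AGTTCA, in the same direction and 4 bases apart, was in 0 of the leading genes' promoters and in 1 of 10543. A match is a run of letters, not a measured binding site.

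**Figure D1:**
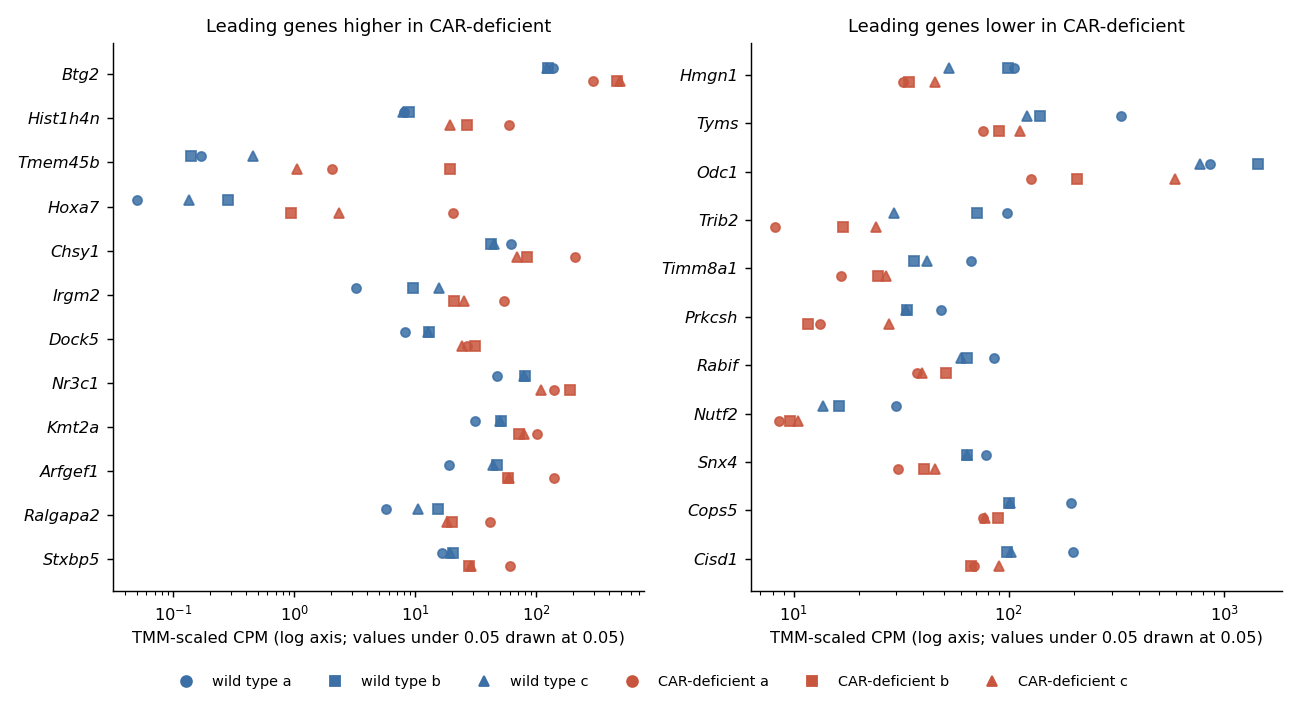
Level of the leading genes in each colon library, as TMM-scaled CPM on a log axis. Colour gives the genotype and symbol the column ending. In every row the 3 CAR-deficient libraries lie on 1 side of the 3 wild type ones, which the choice of genes requires. The wild type values of Btg2 lie close together, at 122 to 137 CPM.

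The other leading genes higher in CAR-deficient cells had varied roles. Nr3c1, the glucocorticoid receptor and itself a nuclear receptor, was at 46.9, 80.9 and 79.6 against 139, 190 and 109 CPM (log2 fold change 1.08 ± 0.35, unadjusted p = 0.00709 by edgeR). The lowest CAR-deficient library, c, was still above the highest wild type one. Chsy1, which builds chondroitin sulfate chains, was at 61.7, 41.9 and 44.6 against 208, 84.4 and 69.8 CPM (1.29 ± 0.40). Dock5, an activator of the small GTPase Rac, was at 8.16, 13.0 and 12.7 against 26.9, 31.0 and 24.5 CPM (1.28 ± 0.41). Kmt2a, a histone methyltransferase, was at 31.0, 50.9 and 49.9 against 101, 71.4 and 79.6 CPM (0.94 ± 0.30). In Chsy1 and Kmt2a the widest gap lay between the a libraries.

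Irgm2, an interferon-induced GTPase, Arfgef1 and Ralgapa2, which regulate small GTPases, and Stxbp5, a brake on vesicle fusion, completed the well-measured leading genes. Their log2 fold changes were 1.81 ± 0.57, 1.23 ± 0.40, 1.34 ± 0.45 and 1.05 ± 0.36. Arfgef1 rested on library a: its CAR-deficient level was 141 CPM there and 58.2 and 59.3 CPM in b and c, against 19.1, 47.1 and 44.1 CPM in wild type. Hoxa7, a homeobox factor, and Tmem45b were at or under 0.454 CPM in each wild type library. In CAR-deficient libraries Hoxa7 was at 20.3, 0.937 and 2.36 CPM and Tmem45b at 2.03, 19.3 and 1.05 CPM, so 1 library carried most of each signal. Tmem45b was called by DESeq2 (adjusted p = 0.018).

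Hist1h4n, a histone H4 gene (chr13:21831767-21832196), was at 8.05, 8.86 and 7.98 against 59.4, 26.7 and 19.4 CPM (2.08 ± 0.52). Its neighbour Hist1h4m (chr13:21811746-21812147) went the other way, at 20.1, 13.9 and 14.9 against 0, 0.148 and 9.23 CPM. H4 genes encode the same protein and are near-identical copies, so how the counting divided reads between them is uncertain. Over the 29 tested members of the clustered histone list, 12 were above 0 and 17 below, with a median log2 fold change of -0.16 (all genes -0.02).

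Among leading lower genes, Odc1 had the highest level. It encodes ornithine decarboxylase, which makes the first polyamine from ornithine and is high in growing cells. It was at 863, 1440 and 775 against 127, 208 and 590 CPM (log2 fold change -1.73 ± 0.54, unadjusted p = 0.00587 by edgeR). CAR-deficient library c came closest to wild type, and without it the value was -2.62. On library totals alone the groups of Odc1 overlap, as do those of Tyms and Cisd1. Of the 14 tested polyamine genes, 6 were above 0 and 8 below (median -0.09). In Odc1 alone the CAR-deficient libraries lay wholly below (3.32% of all genes tested).

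Hmgn1, which loosens chromatin at nucleosomes, was at 105, 99.2 and 52.5 against 32.3, 34.4 and 45.2 CPM (-1.20 ± 0.31). Trib2, a pseudokinase, was at 97.7, 71.2 and 29.1 against 8.20, 17.0 and 24.0 CPM (-2.01 ± 0.64). For both the c libraries were nearest to each other. Other leading lower genes were Timm8a1 and Nutf2 (mitochondrial and nuclear import), Prkcsh (glucosidase II), Cops5 (COP9 signalosome), Rabif and Snx4 (vesicle traffic) and Cisd1 (an iron-sulfur protein of mitochondria). Their log2 fold changes ran from -1.13 to -0.71.

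Cell cycle and replication genes had the lowest median of the lists with at least 10 tested members. Of 30 tested, 29 were below 0 and 1 above, with a median log2 fold change of -0.69 against -0.02 over all genes. None passed edgeR's adjusted threshold and 2 had an unadjusted p under 0.05 (2.44% of all genes tested). In 8 of the 30 the CAR-deficient libraries lay wholly below (3.32% of all genes tested) and in 0 wholly above (4.09%). With totals alone the count without overlap was 2, with 29 still below 0. Tyms, thymidylate synthase, was at 333, 140 and 121 against 75.7, 90.1 and 113 CPM (-1.09 ± 0.33), and its value was -0.48 without wild type library a. Ube2c, a mitotic ubiquitin-conjugating enzyme, was at 154, 126 and 129 against 78.6, 67.5 and 81.6 CPM (-0.84 ± 0.34), with similar gaps at each ending. The mitotic cyclin gene Ccnb2 was at 88.9, 111 and 131 against 59.8, 62.9 and 72.4 CPM, and the kinase gene Cdk1 at 67.1, 71.9 and 101 against 27.2, 47.2 and 66.6 CPM. Mki67, the usual proliferation marker, overlapped, at 232, 114 and 149 against 120, 120 and 140 CPM. The list's summed level was 3101 to 3701 against 2154 to 2713 CPM. Its median ran from -0.98 (without CAR-deficient library c) to -0.46 (without CAR-deficient library a), and was -0.43 without the a columns.

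Promoters of 3 of these genes are printed to show where 2 elements known from this group lie in them. G2 and mitosis genes usually carry CCAAT boxes spaced along the promoter and a TTTGAA element near the start. Capitals mark CCAAT and TTTGAA on either strand (ATTGG and TTCAAA on the other). In Ube2c, CCAAT boxes of both strands overlap as CCAATTGG. TTTGAA lies 29 to 24 bases before the start in Ube2c and 15 to 10 in Cdk1, which has another further out, while the single match in Ccnb2 lies 167 to 162 bases before it, further out than its CCAAT boxes.
Ube2c, chr2:164769679-164769928, plus strand: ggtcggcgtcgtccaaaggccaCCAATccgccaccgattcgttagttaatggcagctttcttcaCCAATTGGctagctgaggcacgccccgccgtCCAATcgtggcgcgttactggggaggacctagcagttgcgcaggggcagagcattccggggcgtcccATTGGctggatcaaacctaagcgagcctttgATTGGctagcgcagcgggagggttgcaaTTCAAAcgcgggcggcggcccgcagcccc
Ccnb2, chr9:70421555-70421804, minus strand: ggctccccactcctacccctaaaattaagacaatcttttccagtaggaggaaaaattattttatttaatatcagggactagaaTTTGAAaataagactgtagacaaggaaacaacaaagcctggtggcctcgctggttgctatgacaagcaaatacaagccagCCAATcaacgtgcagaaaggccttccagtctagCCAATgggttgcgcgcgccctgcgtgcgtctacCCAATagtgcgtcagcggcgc
Cdk1, chr10:69352913-69353162, minus strand: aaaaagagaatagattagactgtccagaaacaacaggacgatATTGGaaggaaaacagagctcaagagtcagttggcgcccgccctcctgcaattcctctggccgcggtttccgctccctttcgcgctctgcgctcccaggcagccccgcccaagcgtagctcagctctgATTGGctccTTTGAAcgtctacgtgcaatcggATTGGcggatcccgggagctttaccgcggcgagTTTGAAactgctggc
Of the 30 list members 24 matched a promoter. CCAAT was in 18 of the 24 (75%), against 40.5% of the 10543 tested genes with a promoter, and TTTGAA in 7 of 24 (29.2%), against 13.7%. AGGTCA was in 3 of the 24. Neither CCAAT nor TTTGAA was particular to the cell cycle list. Of the 25 tested drug-handling genes 20 matched a promoter, with CCAAT in 12 (60%) and TTTGAA in 8 (40%).

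**Figure D2:**
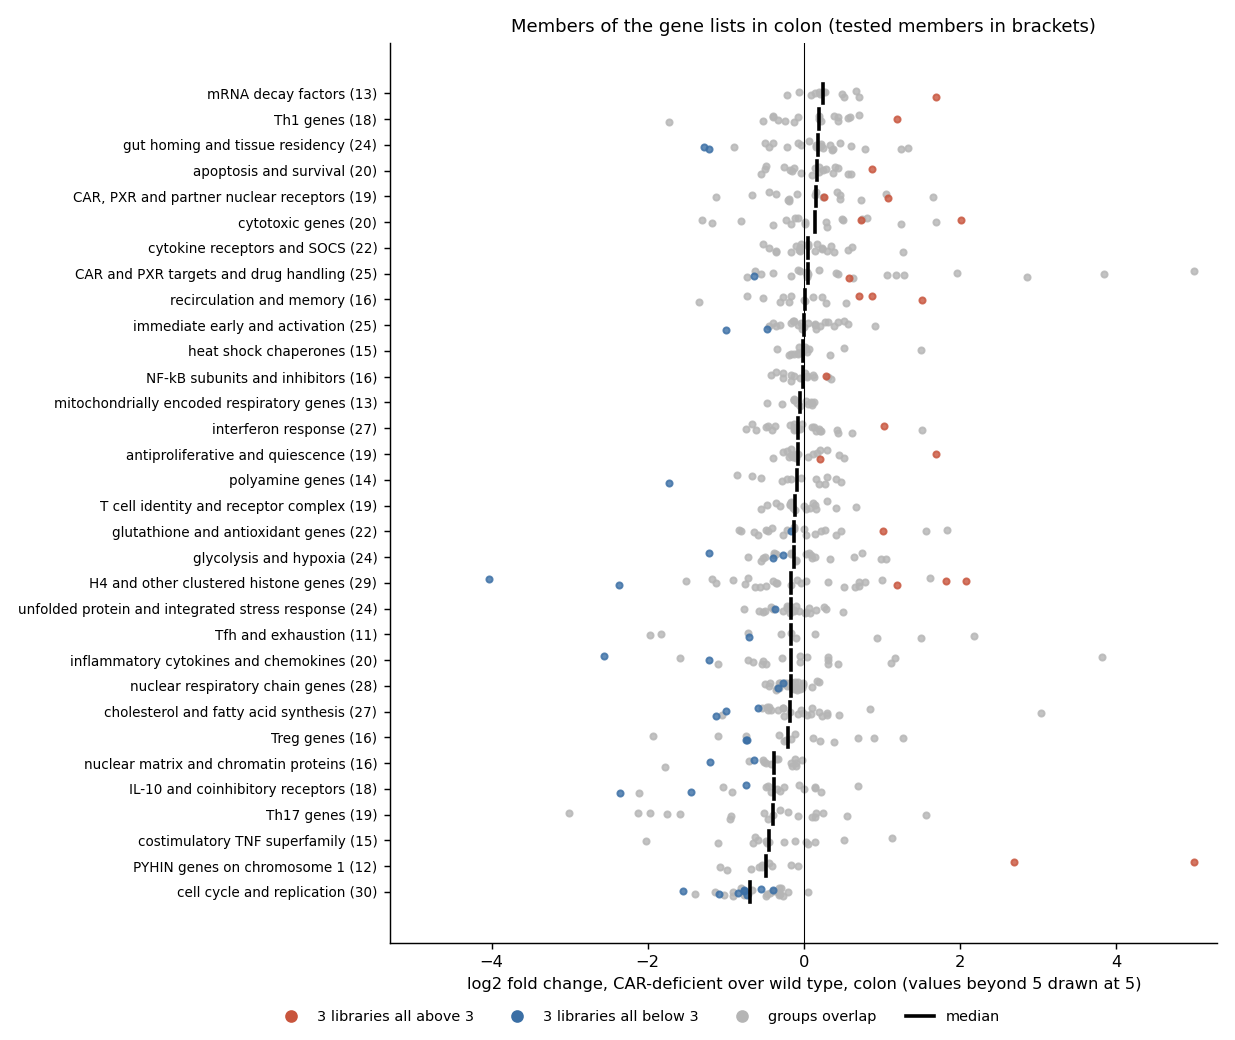
Log2 fold change in colon of each tested member of the lists with at least 10 tested members, ordered by median. Black bars are medians, and coloured points are genes whose groups do not overlap. Cell cycle genes sit lowest, with a median of -0.69 and 8 members lying wholly below (3.32% of all genes tested).

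Nuclear matrix and chromatin proteins were below 0 in 16 of 16, at a median of -0.38, or -0.08 without wild type library a. In 2 of the 16 (Hmgn1 and Uhrf1) the CAR-deficient libraries lay wholly below (3.32% of all genes tested), and in 1 on library totals alone. Nuclear genes of the respiratory chain lay below 0 in 25 of 28, at a median of -0.17, but the median was 0.28 without wild type library a. Factors of messenger RNA decay lay above 0 in 11 of 13 (median 0.24), Btg2 among them. In Btg2 alone the CAR-deficient libraries lay wholly above (4.09% of all genes tested), against 3 members on library totals alone.

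Drug-handling genes known to answer to CAR or its relative PXR were divided in direction. Of 25 tested, 17 were above 0 and 8 below, at a median of 0.05. None had an unadjusted p under 0.05 by edgeR (2.44% of all genes tested). By the difference in mean log2(CPM + 1), 14 were above 0 and 11 below. In 1 of the 25 the CAR-deficient libraries lay wholly above (4.09% of all genes tested) and in 1 wholly below (3.32%). On library totals alone these counts were 1 and 0. Abcb1b lay above, at 22.6, 25.8 and 29.9 against 40.6, 37.9 and 39.0 CPM (0.58 ± 0.39). Gstt2, a glutathione transferase gene, lay below, at 54.8, 49.5 and 43.4 against 20.9, 34.7 and 39.2 CPM (-0.64 ± 0.44). Abcb1a overlapped, at 50.3, 48.7 and 51.4 against 21.0, 71.4 and 62.3 CPM (0.04 ± 0.48). Of the 19 tested nuclear receptor genes and cofactors, 11 were above 0 and 8 below (median 0.16). In 2 of the 19, Nr3c1 and Ncoa1, the CAR-deficient libraries lay wholly above (4.09% of all genes tested), and in 1 on library totals alone. In the glutathione and antioxidant list, 9 of 22 were above 0. Gclc, the rate-limiting enzyme of glutathione synthesis, was at 12.9, 15.6 and 16.5 against 39.8, 26.1 and 25.4 CPM (1.02 ± 0.40).

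The list of IL-10 and coinhibitory receptors also holds the IL-10 receptor genes, the costimulatory Icos and Tnfrsf9, and transcription factors such as Maf and Batf. Of its 18 tested members 14 were below 0, at a median of -0.38. The 4 above 0 were Pdcd1 and Cd160 (0.14 each), Il10rb (0.22) and Entpd1 (0.70). Il10, the main anti-inflammatory cytokine of effector T cells, was at 417, 237 and 90.9 against 76.9, 47.3 and 21.5 CPM (-2.36 ± 0.99, unadjusted p = 0.03 by edgeR). The lowest wild type library, c, stood just above the highest CAR-deficient one, a. With the replicate block its unadjusted p was 0.000986, and it was not called there either (no gene was). Ctla4 was at 597, 795 and 560 against 383, 491 and 297 CPM, and Havcr2 at 25.6, 37.1 and 17.8 against 0.370, 17.6 and 11.6 CPM. Lag3 overlapped, at 10.2, 7.45 and 1.13 against 1.29, 1.43 and 1.62 CPM. Of the 16 tested regulatory T cell genes 10 were below 0 (median -0.20), and Foxp3 was at or under 3.94 CPM in all 6 libraries.

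Th1 genes lay above 0 in 10 of 18, at a median of 0.20. Il18rap, a subunit of the IL-18 receptor, was at 74.0, 60.7 and 91.0 against 189, 183 and 146 CPM (1.20 ± 0.52), without overlap. Ifng overlapped, at 2835, 1450 and 1421 against 3900, 2157 and 1402 CPM, and so did Tnf, at 41.2 to 93.9 against 64.5 to 90.3 CPM. Of 20 cytotoxic genes 12 were above 0 (median 0.15). Gzma, granzyme A, was at 428, 138 and 502 against 2768, 787 and 738 CPM (2.01 ± 0.78), and its value was 1.08 without CAR-deficient library a. Th17 genes lay below 0 in 13 of 19, at a median of -0.39. No member was free of overlap, against 7.41% of all genes tested. That median was 0.07 without wild type library c and -1.45 without CAR-deficient library c. Il17a itself was at 7.99, 0 and 9.89 against 0, 0 and 2.19 CPM.

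Among recirculation and memory genes, 9 of 16 were above 0 (median 0.01). In 3 of the 16 the CAR-deficient libraries lay wholly above (4.09% of all genes tested), and in 1 on library totals alone. Of these transcription and survival factors of resting lymphocytes, Foxo1 was at 71.4, 46.5 and 71.1 against 144, 76.8 and 88.8 CPM, Bcl2 at 49.6, 20.3 and 51.6 against 111, 53.1 and 57.4 CPM, and Bach2 at 0.619, 5.25 and 4.26 against 12.3, 7.15 and 9.5 CPM. Gut homing and residency genes lay above 0 in 15 of 24 (median 0.18). In this list Ccr9, the small intestine homing receptor, was at 9.91, 8.25 and 4.81 against 0.247, 4.73 and 4.42 CPM. Itgae, the integrin chain of intraepithelial T cells, overlapped, at 5.91, 10.1 and 74.8 against 27.2, 65.2 and 63.5 CPM.

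The remaining genes called by DESeq2 or voomWithQualityWeights rested mostly on libraries at 0. The killer cell lectin receptor genes Klra4 (0 in each wild type library, then 23.9, 1.43 and 0.0875 CPM) and Klra7 (0 in each, then 10.7, 4.93 and 0) were called higher by DESeq2, as were Pi4ka, Rpl9-ps6 and Vcp-rs. Ear2, Gm3752, Gm43302, Trav6-5 and Trav7-2 were called lower, and the first 2 were above 0 in wild type library a alone. Trav6-5 was the best measured of these, at 12.5, 10.4 and 4.85 against 0, 0.394 and 0.350 CPM. Adora1, an adenosine receptor gene called by voomWithQualityWeights (adjusted p = 0.0419), was at 0, 0.0469 and 0 against 0.493, 1.33 and 1.84 CPM. Gm28438 (chr1:24612775-24613119, adjusted p = 7.34e-05 by voomWithQualityWeights) was at 2.19, 0 and 0 against 78.6, 28.5 and 37.2 CPM. It lies in a row of gene models that copy mitochondrial genes, so its counting is uncertain.

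The genotypes also differ by design at Ptprc on chromosome 1. Ptprc encodes CD45, and the CD45.1 form that marks the wild type cells was bred into C57BL/6 from another strain together with flanking chromosome 1 sequence. Of 95 tested genes within 10 Mb of Ptprc, 15 (15.8%) were without overlap, 8 higher and 7 lower, against 7.41% of all genes tested. Successive 10 Mb stretches of the chromosome ranged from 0% to 20%, and 2 thinly filled ones elsewhere reached 19% (4 of 21 genes) and 20% (3 of 15). The 15 include Btg2 (4.04 Mb before Ptprc), Adora1 (3.90 Mb), Rabif (3.62 Mb), Il10 (7.10 Mb), Cd55 (7.67 Mb) and Cd55b (7.71 Mb). Cd55b, a complement regulator gene, was at 0.394, 0.750 and 1.04 against 0, 0.0493 and 0 CPM. Its neighbour Cd55, a close paralog, was at 56.0, 57.1 and 80.4 against 14.2, 45.5 and 44.6 CPM. Within 10 Mb of Nr1i3, 33.1 Mb further along, 6.36% of tested genes were without overlap. In spleen the share within 10 Mb of Ptprc was 11.6% (6.31% of all genes) and in small intestine 8.42% (8.33%). Since every wild type library carries CD45.1 and no CAR-deficient one does, the marker's chromosomal segment and the loss of CAR cannot be told apart in these libraries.

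**Figure D3:**
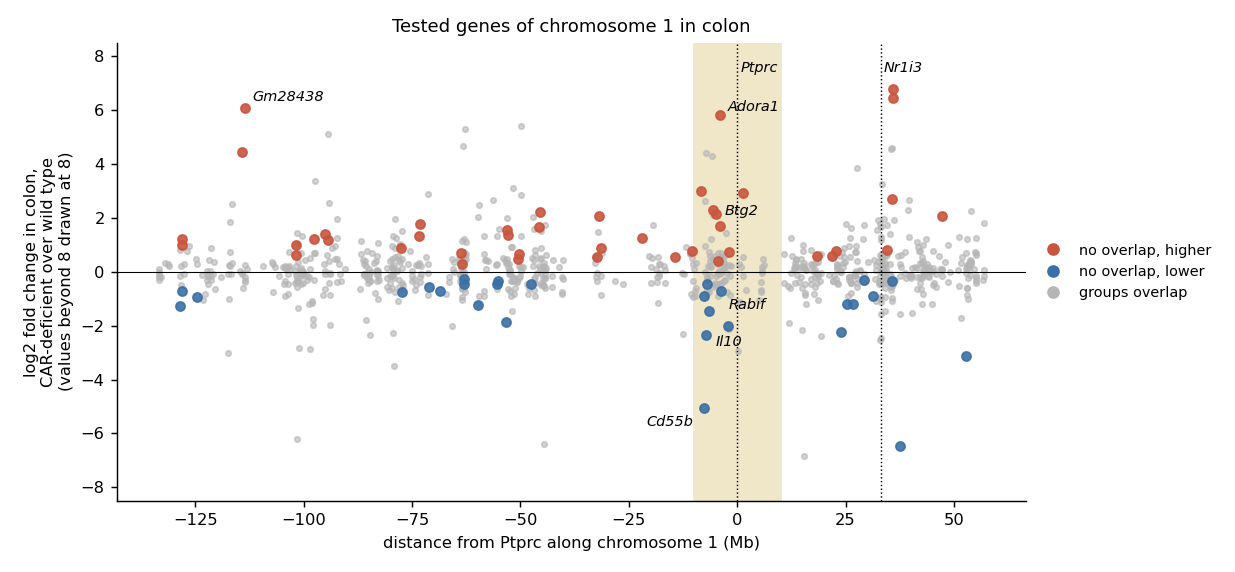
Log2 fold change in colon of the tested genes of chromosome 1, without Ptprc itself, plotted against distance from Ptprc in Mb. Dotted lines mark Ptprc and Nr1i3, the shaded band spans 10 Mb on either side of Ptprc, colours mark genes without overlap, and values beyond 8 are drawn at 8. In the band 15 of 95 genes are coloured, against 7.41% of all genes tested.

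Interferon-inducible PYHIN genes, clustered near Nr1i3 on chromosome 1, were below 0 in 10 of 12 (median -0.49). In the other 2 the CAR-deficient libraries lay wholly above (4.09% of all genes tested). Ifi204, a nucleic acid sensor gene, was at 1.13, 3.56 and 9.30 against 50, 30.8 and 9.54 CPM. Ifi202b was at 0 in each wild type library and at most 1.73 CPM in CAR-deficient ones. The margin of Ifi204 was narrow, between the c libraries. These genes are close paralogs, and the division of reads between them is uncertain.

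Genes without overlap differed in transcript length. The longest annotated transcript had a median of 4453 nt in those higher, 2389 nt in those lower and 3101 nt over all genes tested. Of 5 equal bins by length, the shortest had 2.22% of its genes lying above and 4.64% below. The longest had 8.04% above and 1.25% below. The median log2 fold change ran from -0.07 in the shortest bin and -0.15 in the next to 0.17 in the longest. Among genes without overlap the gap was widest between the a libraries. There the median log2 ratio of CAR-deficient to wild type was 1.10 over the higher genes, against 0.49 for b and 0.44 for c. Over the lower genes it was -1.32 for a, -0.50 for b and -0.35 for c. Over all tested genes with a length, the median ratio for a went from 0.00 in the shortest bin to 0.05 in the longest. It went from 0.01 to 0.13 for b and from -0.11 to 0.19 for c. The part of transcript length in the results above was not tested.

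**Figure D4:**
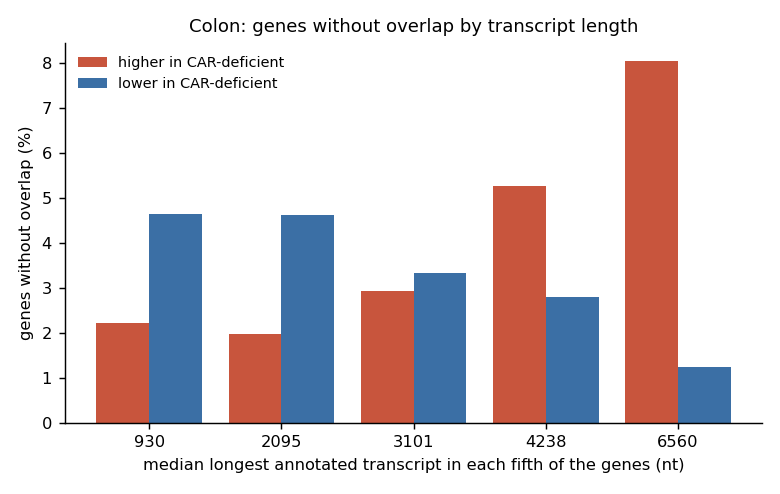
Percent of tested genes without overlap in colon, for 5 equal bins of genes by longest annotated transcript (x axis: median of the bin in nt). Bars start at 0. The share lying above goes from 2.22% in the shortest bin to 8.04% in the longest, and the share lying below from 4.64% to 1.25%.

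Markers of other cells were present in some libraries. In bulk samples, fewer cells of a type and less RNA per cell cannot be told apart. All 16 tested intestinal epithelial markers were above 0 (median 2.34). By the difference in mean log2(CPM + 1), 14 were above 0 and 2 below. In 2 of the 16 the CAR-deficient libraries lay wholly above (4.09% of all genes tested). Their summed level was 57.7, 28.4 and 53.7 against 109, 373 and 57.1 CPM over the markers. CAR-deficient library b carried most of it, with Lgals4 at 126 CPM and Pigr at 23.1 CPM, and the median was 0.78 without it. Stromal, endothelial and glial markers summed to 105, 827 and 1271 against 221, 1602 and 1067 CPM, mainly Dcn. Myeloid markers summed to 68.4 to 150 against 55.0 to 159 CPM, and B and plasma cell markers to 160 to 198 against 74.1 to 198 CPM. CD8, NK and innate lymphoid markers summed to 133 to 264 against 144 to 263 CPM, with 7 of 13 above 0 (median 0.08), and the sums include Il7r and Gata3, which CD4+ T cells also express. The part of these cells in the results was not tested. Tmem45b was also highest in CAR-deficient library b.

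T cell receptor beta variable segments were used unevenly from library to library. Trbv26 made up 67.3% of segment counts in wild type library a (95% exact Clopper-Pearson interval 66.3% to 68.2%, counting error only), 57.0% in b and 0.727% in c. In CAR-deficient libraries it made up 0% (upper limit of the same interval 0.0412%), 0.258% and 0.301%. Trbv16 led in CAR-deficient libraries b (26.2%) and c (34.8%). Wild type library c was thus near the CAR-deficient libraries in this segment, and far from wild type a and b. Il10 was also highest in wild type libraries a and b, and the part of single clones in its level was not tested.

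The colon difference was set beside those in small intestine and spleen, which rest on separate libraries but cannot be counted as independent repeats. Whether the organs came from the same hosts is not given, and CD45.1 marks the wild type libraries of each organ. The a libraries of small intestine and spleen also had fewer genes detected, 15466 to 16128 against 17013 to 18819 in b and c. By edgeR no gene's colon effect differed from its small intestine effect (0%, with 358 genes or 2.41% at an unadjusted p under 0.05) or from its spleen effect (0%, with 184 genes or 1.24%). DESeq2 called 14 and 8 genes in these tests and voomWithQualityWeights 0 and 0. Of the 608 genes higher in colon, 57 were also higher without overlap in small intestine, which is 9.38% of the colon genes and 10.1% of the small intestine genes. Small intestine had 3.8% of all tested genes in that class. In spleen it was 56 genes, 9.21% of the colon and 11.7% of the spleen genes, where 3.23% of all tested genes were in that class. Of the 494 lower genes, 60 were shared with small intestine (12.1% and 8.92%, background 4.52%) and 43 with spleen (8.7% and 9.37%, background 3.09%).

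A set of 22 genes was without overlap in the same direction in all 3 organs, 11 higher and 11 lower. Of the 22, 2 (Btg2 and Cd55b) lie within 10 Mb of Ptprc, a stretch that holds 0.639% of the tested genes. Another 2, both T cell receptor alpha variable segments, have the same values in every library, so 1 signal is counted more than once. Hist1h4n, Hist1h4m and Gm28438, whose counting is uncertain, are also among the 22. Btg2 had log2 fold changes of 1.70 in colon, 1.70 in small intestine and 1.57 in spleen. Odc1 was at -1.73, -1.54 and -1.45, and Gzma at 2.01, 2.67 and 3.59. Zeb2, a transcription factor of terminal effector T cells, was at 1.54, 1.37 and 2.36. Sirt5, a mitochondrial deacylase, was at 0.92, 0.55 and 0.69. Lower in all 3 were also Prkcb, a protein kinase C (-0.86, -1.24 and -0.68), Tox2, a factor of follicular helper and exhausted T cells (-0.70, -1.88 and -1.84), and the proteasome activator Psme1 (-0.30, -0.20 and -0.20). The cell cycle list had a median of -0.69 in colon, -0.58 in small intestine and -0.07 in spleen. Whether the list's medians differ between organs was not tested.

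**Figure D5:**
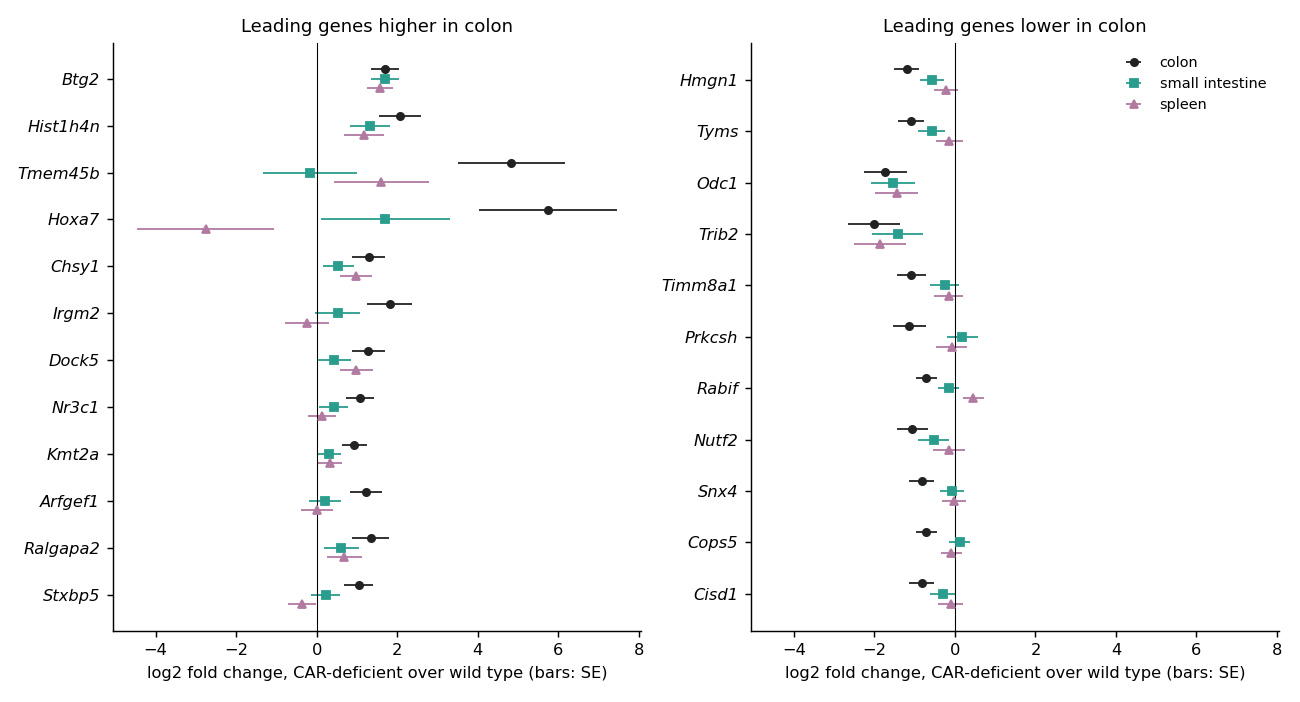
Log2 fold change, CAR-deficient over wild type, with its SE, of the colon's leading genes in colon, small intestine and spleen. Btg2 and Odc1 have nearly the same value in each organ (1.70, 1.70 and 1.57, and -1.73, -1.54 and -1.45). No gene's colon effect differed from its effect in small intestine or in spleen by edgeR at an adjusted p under 0.05.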

How the data were processed

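Libraries were made with the SMART-Seq v4 ultra low input and NEBNext Ultra II DNA kits, per the labels' protocols. The deposited values are estimated counts for each gene, per the file headers. Salmon, DESeq2 and mm10 are named in the submitters' processing notes, without versions or roles. Columns name organ and CD45.1 status but no replicate, CD45.1 negative columns were taken as CAR-deficient by elimination, and 37 columns of other measures were not used.

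Counts were rounded (31.8% were not whole within 0.001), filtered with filterByExpr and scaled by TMM. All 18 libraries were fitted with 6 group means by edgeR 4.0.16 glmQLFit in R 4.3.3 (common biological coefficient of variation 0.791), tested two-sided and adjusted by Benjamini-Hochberg at 0.05. The SE was taken as the size of the log2 fold change divided by the root of its F. DESeq2 1.42.0, limma 3.58.1, other scalings and filters, fewer libraries and a replicate block were alternatives. The script was tested on simulated data, and its rule for passing applied only to a run with spread set well below that of these data. How large a change edgeR could call at the data's own spread is not given. Nothing says that libraries came from separate animals, so p-values measure only the spread between them.

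The pairing was set by column ending, which gives no replicate number. Same-ending colon libraries deviated together (r = 0.389, 0.193 and 0.4). Libraries b and c also did so across endings (0.136 and 0.147). Intervals cover counting error only, since reads carry no molecular identifiers. Positions are GENCODE vM21 (GRCm38).

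Named genes are Nr1i3, 21 fixed genes, the 12 leading genes per direction, calls of other tools and up to 3 members of each of 42 lists. Further list members and genes shared by the organs were chosen after their values were seen. Of the leading lower genes, 1 is not reported here. The members and lists were chosen with earlier results of these data known.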

Additional observations from a re-analysis of the deposited data

How the results depend on the processing

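The count of genes called by edgeR in colon stayed at 0 under 13 of 16 alternatives. It was 12 by DESeq2, 3 by voomWithQualityWeights and 2 without the a columns of every group. For the difference from small intestine DESeq2 called 14, for that from spleen 8, and the other alternatives 0, except that these differences could not be computed from the 6 colon libraries alone. With the replicate block by column ending, which pairs the libraries, each of these 3 counts was 0, and the block changed no call. Genes at an unadjusted p under 0.05 in colon numbered 363, and between 238 (without CAR-deficient library a) and 679 (without CAR-deficient library c) when each colon library was left out, 161 with the 6 colon libraries alone and 754 with no filter.

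Of 1407 values of 90 named genes under alternatives, 1369 kept their sign and side of the threshold, 17 became called and 21 changed sign, in 9 genes. Abcb1a was at -0.14 with the replicate block, at -0.13 with the block on the colon libraries alone, and between -0.27 and 0.40 when each colon library was left out. Left out in turn, Ifng ran from -0.12 to 0.81, Tnf from -0.05 to 0.54, Foxp3 from -5.28 to 7.89, Cd3e from -0.29 to 0.17, Dcn from -0.37 to 1.09, Cd8b1 from -2.36 to 0.02, Il7r from -0.20 to 0.93 and Nr1i3 from -2.42 to 6.47. With at least 1 CPM in 3 libraries required, Cd3e was at 0.00. Medians of lists moved by less than their spread between libraries in 612 of 670 cases. Size factors and library totals in place of TMM gave 551 and 669 genes above and 551 and 340 below without overlap, an alternative chosen after seeing the data, as was leaving out the small intestine CAR-deficient library a, which gave 0 calls. With 3 libraries a group, exact tests cannot go below 0.1, and Nr1i3 had too few counts in either genotype for a statement on it.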
